A study of Homo sapiens with 10 samples.

Results

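The genes described here are 9 precursors of secreted neuropeptides and granins, namely NTS, CALCA, CALCB, PENK, TAC1, VGF, SCG2, SCG5 and CHGB, together with SYT1, a calcium sensor of vesicle release. They were taken by gene symbol from a table of 11880 gene symbols, and all 10 were present. They had been picked because earlier results of the same arrays showed some of them high in a single subclone, so their levels below are a description and were not tested. The samples were 10 subclones of the human glioma line U87MG, which grows attached to plastic. The line was seeded thinly, and each subclone was expanded from a colony that had grown from 1 cell. All subclones were kept untreated in DMEM with fetal bovine serum and were collected in exponential growth, and they carry the numbers 1, 2, 3, 5, 6, 8, 9, 10, 11 and 12. With 1 Affymetrix array for each subclone, it is unknown how far repeat cultures of a subclone would differ, and no difference below can be set against such an error.

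Neuropeptides are made as longer precursors that enter the secretory pathway, are packed into dense-core granules, and are cut there by convertases at paired basic residues. Granins are acidic proteins that help to form these granules and are themselves cut into peptides. On a rise in calcium, synaptotagmins trigger fusion of the granule with the cell membrane. Neurons and endocrine cells are the best known users of this pathway, and glial cells and gliomas are also known to express parts of it. Many peptide genes are known to respond to cAMP through CREB, a transcription factor that binds the cAMP response element.

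Promoters are shown for the 4 members that were above the table's median somewhere and had an entry in the RefSeq promoter table. CALCB and SCG2 were also above that median somewhere but had no usable entry. Each sequence is the 250 bases before the annotated start, 5′ to 3′ on the gene's strand, GRCh38.p14, with capitals marking matches to the cAMP response element with 1 base free (TGACNTCA) or to its core (TGACG), on either strand.
NTS chr12:85874045-85874294 (+ strand): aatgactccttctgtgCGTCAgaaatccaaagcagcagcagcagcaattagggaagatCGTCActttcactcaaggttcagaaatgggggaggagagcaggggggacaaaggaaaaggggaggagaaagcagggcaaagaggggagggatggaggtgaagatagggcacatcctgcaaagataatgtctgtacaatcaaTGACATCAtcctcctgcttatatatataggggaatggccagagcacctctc
VGF chr7:101165570-101165819 (- strand): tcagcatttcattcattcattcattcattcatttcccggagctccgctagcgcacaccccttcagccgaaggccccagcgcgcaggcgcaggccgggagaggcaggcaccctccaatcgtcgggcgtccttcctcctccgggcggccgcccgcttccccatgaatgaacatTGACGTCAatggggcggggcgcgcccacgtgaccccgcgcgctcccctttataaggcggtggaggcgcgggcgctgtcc
SCG5 chr15:32641460-32641709 (+ strand): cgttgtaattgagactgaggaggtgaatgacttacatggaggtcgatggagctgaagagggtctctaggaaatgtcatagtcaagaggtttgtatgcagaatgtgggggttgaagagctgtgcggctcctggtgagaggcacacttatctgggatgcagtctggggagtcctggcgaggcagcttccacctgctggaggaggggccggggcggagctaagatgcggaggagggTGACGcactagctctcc
SYT1 chr12:78864524-78864773 (+ strand): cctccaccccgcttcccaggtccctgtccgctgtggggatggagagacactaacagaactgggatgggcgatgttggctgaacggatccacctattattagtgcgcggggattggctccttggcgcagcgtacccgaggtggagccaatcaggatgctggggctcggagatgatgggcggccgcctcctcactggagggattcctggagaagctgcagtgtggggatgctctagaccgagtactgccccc
In total the windows of 6 of the 10 members were searched (NTS, CALCA, TAC1, VGF, SCG5 and SYT1). PENK, CALCB, SCG2 and CHGB were left out, so the member counts below do not cover them. VGF alone of the 6 held the full element TGACGTCA, which overlaps its core on both strands, between 79 and 72 bases before the start. This element was found in 1.65% of the 35116 promoter windows of the same length. NTS held the form TGACATCA between 51 and 44 bases before its start, and CALCA held TGACCTCA between 175 and 168 bases before its own. The element with 1 base free was found in 6.87% of all windows. The core was present in 5 of the 6 windows (all but SYT1), against 21.2% of all windows. The AP-1 site TGANTCA, which binds FOS and JUN proteins, was found in 0 of the 6 and in 6.57% of all windows. A match describes these letters and was not tested for binding.

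Values are log2 expression, so 1 unit is a 2-fold difference. The array medians lay between 4.87 and 5.11, and 0 pairs of arrays were identical. Subclone 10 had the lowest upper quartile (6.75), followed by subclone 11 (7.02), and the others lay between 7.17 and 7.36. A gene was followed further if its highest value reached 5.00, the median of all values in the table. Probes differ in brightness, so this line is only a rough guide to expression. Subclone 9 held the highest value for 25.8% of these 7095 genes and the lowest for 11.6%, while subclone 10 held the lowest for 31.8%.

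Of the 10 members, 6 reached the line in at least 1 subclone (59.7% of all genes did): NTS, CALCB, SCG2, SCG5, VGF and SYT1. All 6 spanned at least 1 log2 unit, as did 63.3% of the 7095 genes, and 5 spanned at least 2 log2 units, a 4-fold range, compared with 12.9% of the 7095 genes. In 3 members (NTS, CALCB and SYT1) 1 subclone stood above the other 9 by a gap of at least 1.5 log2 units, which held for 1.31% of the 7095 genes. In SCG5 1 subclone stood below the other 9 by such a gap, as in 0.479% of genes. Without subclone 9, 3 members spanned at least 2 units (9.35% of genes then followed), since SCG5 and SYT1 no longer did. The members were chosen on these values, so the shares are background only. A gene bright in a single subclone passes the line through that subclone, so the 6 do not stand for all 10.

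**Figure D1:**
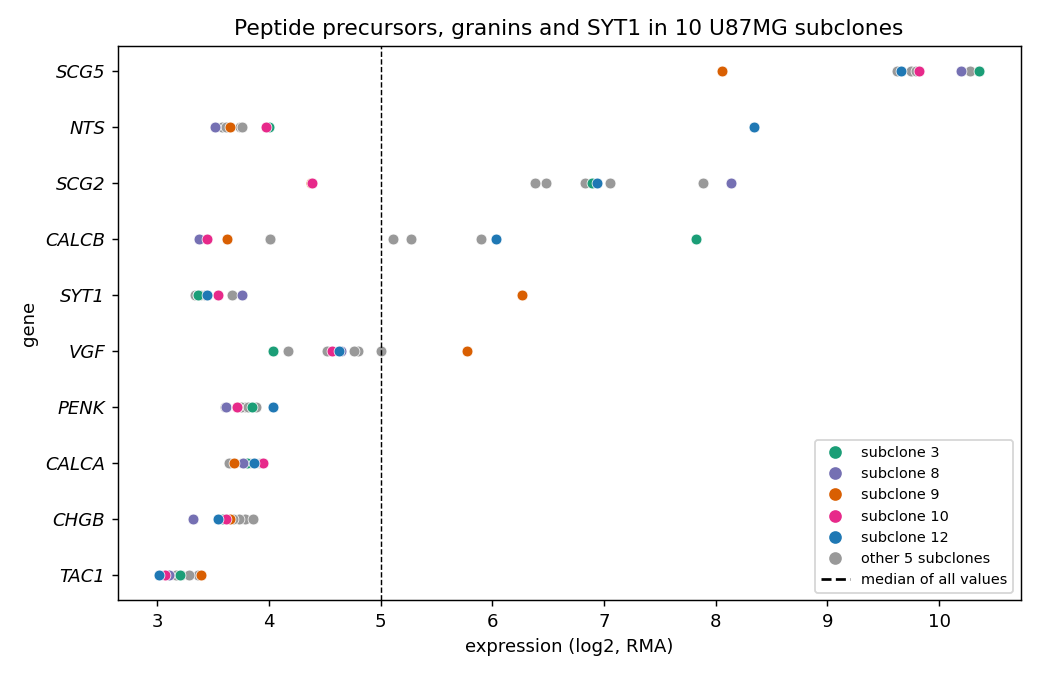
Log2 expression (horizontal axis) of the 10 genes (rows), with 1 point for each subclone and the dashed line at the median of all values in the table. NTS in subclone 12 (8.35), CALCB in subclone 3 (7.82) and SYT1 in subclone 9 (6.26) stand to the right of their other points, and SCG5 in subclone 9 (8.05) stands to the left.

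Among the peptide precursors, NTS was high in 1 subclone. It encodes the precursor of neurotensin and neuromedin N, peptides of the gut and brain. Its level was 8.35 in subclone 12, and in the other 9 it lay between 3.52 in subclone 8 and 4.003 in subclone 3, with a median of 3.65. The difference from that median was 4.69 log2 units, or 25.9-fold. Only 0.507% of the 7095 genes spanned as much as its 4.83 units. Over the 9 subclones without subclone 12, NTS spanned 0.48 units.

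CALCB encodes beta-CGRP, a calcitonin gene-related peptide that widens blood vessels. Its levels were graded, with 7.82 in subclone 3 above 6.03 for subclone 12, 5.90 for subclone 5, 5.27 for subclone 2 and 5.11 for subclone 1. In the other 5 subclones it was lower, at 4.01 in subclones 6 and 11, 3.63 in subclone 9, 3.45 in subclone 10 and 3.37 in subclone 8. Its mean was 4.86 ± 1.44 (SD, n = 10), and it spanned 4.45 units, or 2.66 without subclone 3. CALCA, which encodes calcitonin and alpha-CGRP, is the next protein-coding gene to CALCB on chromosome 11 in RefSeq (0 protein-coding genes between). CALCA stayed between 3.64 in subclone 5 and 3.95 in subclone 10.

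The other classical precursors stayed low in every subclone. PENK, the enkephalin precursor, lay between 3.61 and 4.04, and TAC1, the precursor of substance P and neurokinin A, lay between 3.01 and 3.39. With CALCA and CHGB these 4 genes spanned 0.30 to 0.53 units. The 4785 genes of the table that never reached the line had a median range of 0.56 units. No difference between subclones could be read from the 4 at such signals.

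Among the granins, SCG5 reached the line in all 10 subclones. It encodes 7B2, a chaperone of the convertase PCSK2. SCG5 averaged 9.79 ± 0.68 (SD, n = 10). It stood at 8.05 in subclone 9, and in the other 9 between 9.62 in subclone 11 and 10.36 in subclones 2 and 3, with a median of 9.82. The level in subclone 9 was thus 1.76 log2 units under that median, a 3.396-fold difference, and without subclone 9 the range was 0.74 units. RefSeq also lists a read-through gene that takes in SCG5 and an antisense gene beside it, and the labels do not say which transcripts the array's probes measured.

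SCG2, which encodes secretogranin II, the precursor of secretoneurin, was low in both subclones 9 and 10. The values there were 4.37 and 4.39, and the other 8 lay between 6.38 in subclone 6 and 8.13 in subclone 8. The gap between these sets was 1.99 units. Subclone 1 was the second highest, at 7.89. The array of subclone 10 also had the lowest upper quartile. When the upper quartiles of the arrays were set equal, an alternative for this gene chosen after seeing the data, SCG2 had 4.20 and 4.83 in subclones 9 and 10, and the other 8 lay between 6.33 and 8.13.

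VGF encodes a secreted protein induced by nerve growth factor and cut into several peptides. It was at 5.78 in subclone 9, and in the other 9 it lay between 4.04 in subclone 3 and 5.00 in subclone 6, just under the line. Its range of 1.74 units was the smallest of the 6, and 19.7% of the 7095 genes spanned as much. CHGB, or chromogranin B, a core granule protein, lay between 3.32 in subclone 8 and 3.86 in subclone 11.

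SYT1, the calcium sensor, was at 6.26 in subclone 9 and between 3.34 in subclone 1 and 3.76 in subclone 8 in the other 9, whose median was 3.43. The difference from that median was 2.84 units, or 7.15-fold. Without subclone 9 the gene spanned 0.43 units.

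**Figure D2:**
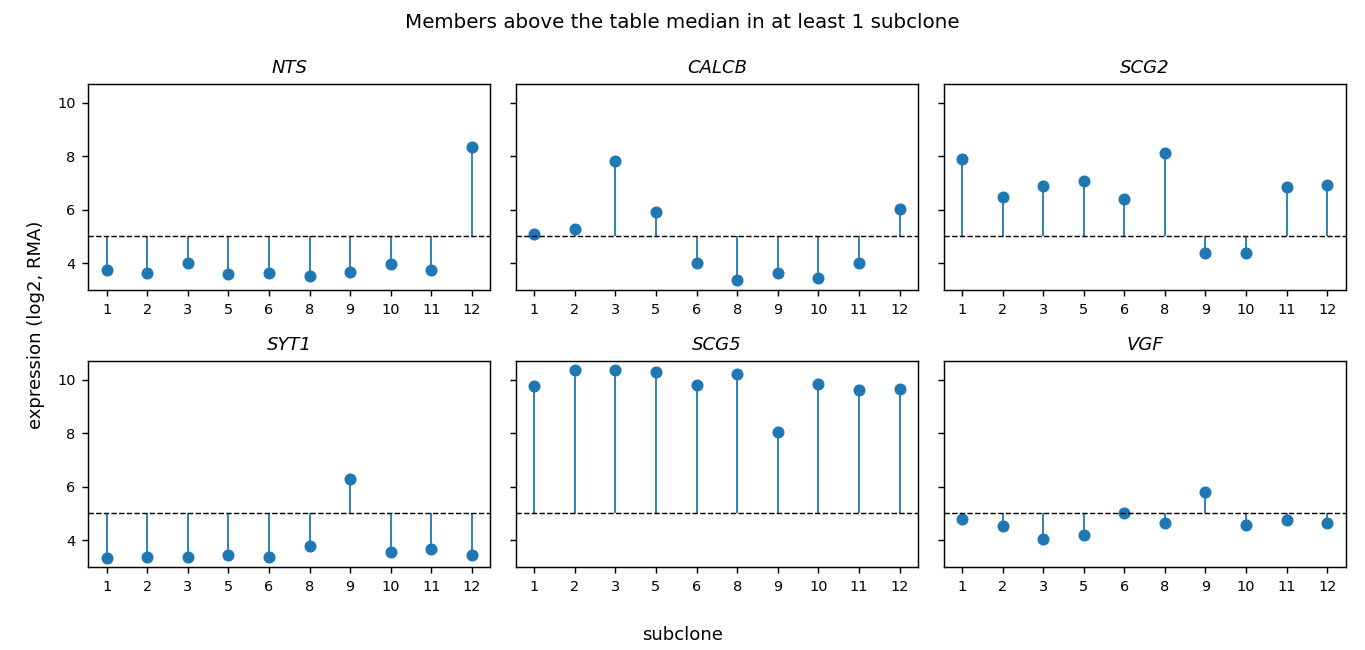
Log2 expression (vertical axis) by subclone (horizontal axis) for the 6 genes that reached the table's median (dashed line) in at least 1 subclone, each point 1 array. NTS and SYT1 have 1 raised point, CALCB is graded, SCG2 is low in subclones 9 and 10, and SCG5 is above the line throughout.

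The highest values were spread over 5 subclones. Subclone 9 held those of VGF and SYT1 and also the lowest of SCG2 and SCG5. Subclone 8 held the highest of SCG2 and the lowest of NTS and CALCB. Subclone 12 had the most members at or above the line, 4 (NTS, CALCB, SCG2 and SCG5), and subclone 10 the fewest, SCG5 alone. Over the 15 pairs of the 6 genes, r was beyond 0.8 in size for 3. These correlations are over 10 single arrays normalised together. VGF and SCG5 ran in opposite order, with r = -0.91 and Spearman's rho = -0.79. Without subclone 9 this r was -0.72, and without subclones 9 and 3, the 2 farthest out in VGF, it was -0.63. VGF lay below the line in every subclone but 9. SCG5 and SYT1 had r = -0.90, which was -0.15 without subclone 9, so this relation rested on that array. VGF and SYT1 had r = 0.81, and 0.18 without subclone 9. NTS and SCG5 had r = -0.06.

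**Figure D3:**
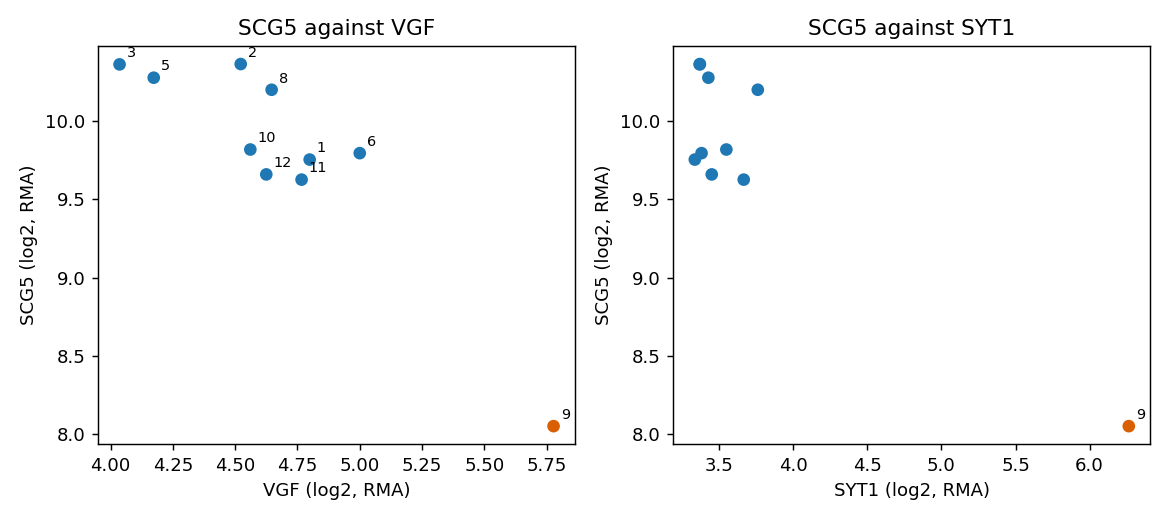
SCG5 (vertical axes, log2) against VGF (left) and SYT1 (right, both log2), 1 point per subclone, with subclone 9 in orange. Subclone 9 is farthest out in both panels. In the other 9, VGF and SYT1 are below the table's median and SCG5 spans 0.74 units. Over these 9, r is -0.72 for VGF and -0.15 for SYT1.

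The genes most like each of the 5 members with a wide range were sought among 7089 others by Pearson's r over the 10 subclones. For NTS they were BTG2, an antiproliferative gene (r = 0.94), PCSK2, the neuroendocrine convertase (r = 0.91), and HSPA12A (r = 0.90). PCSK2 was at 5.21 in subclone 12 and between 3.47 and 4.25 in the other 9. Without subclone 12 the r with NTS was 0.49 for BTG2, 0.02 for PCSK2 and -0.34 for HSPA12A, so all 3 rested on that array. For CALCB they were PIK3R3, a regulatory subunit of PI3 kinase (r = 0.97), IQGAP2, a scaffold protein (r = 0.94), and SFRS14, now SUGP2 (r = 0.93). These were less tied to 1 array: without subclone 3 they had r = 0.93, 0.94 and 0.89. PIK3R3, however, reached the line in subclone 3 alone (5.42) and was at most 4.74 elsewhere, so its remaining r rests on weak signals. IQGAP2 ranged from 8.32 in subclone 3 to 3.79 in subclone 9.

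Among those nearest to SCG2 were CTSF, a lysosomal cathepsin (r = 0.92), and MRPS17 (0.89). Without subclones 9 and 10, where SCG2 was low, these were 0.67 and 0.41 over 8 subclones, a setting chosen after seeing the data. For SCG5 they were AK3L1 (r = 0.99), CA9, the hypoxia-induced carbonic anhydrase (0.98), and FAM70A, now TMEM255A (0.97). Without subclone 9 these had r = 0.94, 0.87 and 0.92 and ranked 30, 250 and 73 of 7089 genes. Other genes were then nearer to SCG5. CA9 was at 7.17 in subclone 9 and reached 11.83 in subclone 2. SYT1 was most like SPINK1, a trypsin inhibitor (r = 0.996), COL15A1, a basement membrane collagen (0.996), and BCL2A1, an anti-apoptotic gene (0.99). Without subclone 9 these were 0.84, 0.85 and 0.63. Outside subclone 9, however, SYT1 was at most 3.76, and SPINK1, COL15A1 and BCL2A1 were at most 4.05, 4.24 and 3.49. All of these lie below the line, so the r without subclone 9 rest on weak signals. SYT1 had r of at least 0.9 with 77 genes, NTS with 4.

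The 7 lists of other genes of the pathway held 149 genes, of which 132 were in the table and 52 reached the line (39.4%, against 59.7% of all genes). Of the 52, 17 spanned at least 2 log2 units (32.7%, against 12.9% of the 7095 genes), and the median range was 1.44 units, against 1.18. With no filter on low values 17 of 132 (12.9%) spanned as much, against 7.71% of all genes, and the median range was 0.80 units, against 0.88. Without subclones 9 and 10, 10 pathway genes and 6.75% of all genes followed spanned as much. No test was made of these shares.

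**Figure D4:**
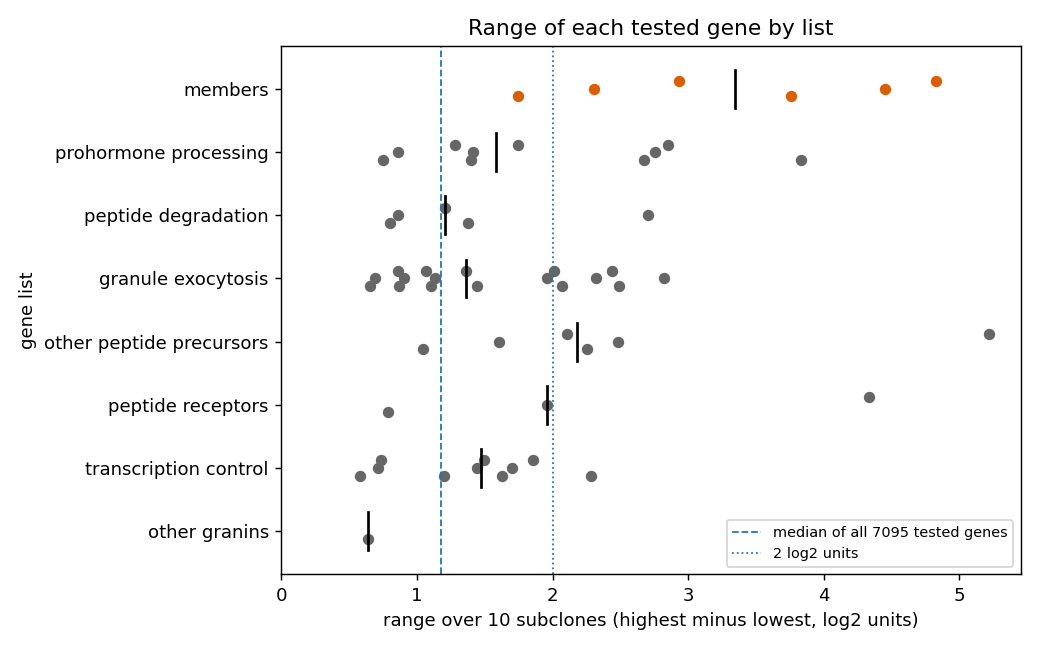
Range over the 10 subclones in log2 units (horizontal axis) for each gene that reached the table's median, by list (rows); black ticks are list medians, the dashed line is the median of all 7095 genes (1.18) and the dotted line is 2 units. The members, in orange, were chosen for their range; in the processing list 4 genes and in the exocytosis list 6 lie past 2 units.

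In the precursor-processing list 10 of 12 genes reached the line, as did 59.7% of all genes, and 4 of the 10 spanned at least 2 units, as did 12.9% of the 7095 genes. QPCT, which forms the N-terminal pyroglutamate found on neurotensin, was highest in subclone 9 (8.30) and lowest in subclone 12 (4.47), the subclone high in NTS. PCSK1, a convertase of dense-core granules, ranged from 6.93 in subclone 8 to 4.08 in subclone 1. CPE, the carboxypeptidase that trims cut peptides, reached 6.58, 6.52 and 6.35 in subclones 3, 2 and 5, against 3.83 in subclone 9. PCSK5, a convertase of the secretory pathway, had 5.98, 6.39 and 5.80 in the same order of subclones, against 3.72 in subclone 9. Both genes were also above the line in subclones 6 and 8 (CPE 5.21 and 5.78, PCSK5 5.11 and 5.71) and below it in subclones 1, 10, 11 and 12, where CPE lay between 3.97 and 4.45. The mean log2 level of the 12 genes lay between 6.47 in subclone 3 and 5.74 in subclone 1.

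Other peptide precursors were mostly low, with 6 of 42 reaching the line (14.3%, against 59.7% of all genes). Of the 6, 4 spanned at least 2 units, as did 12.9% of the 7095 genes. PNOC and SCT, which are among the 4, reached the line in 1 subclone each, so they passed it through the value that makes their range wide. With no filter on low values 4 of 42 (9.52%) spanned as much, against 7.71% of all genes. NMU, the precursor of neuromedin U, had 9.60 in subclone 2, 6.45 in subclone 10 and 4.38 in subclone 9, so the same 2 subclones were lowest as for SCG2. NMB, the neuromedin B precursor, ranged from 9.83 in subclone 12 to 7.73 in subclone 1. PNOC, the nociceptin precursor, had 5.48 in subclone 3 and no more than 3.85 in any other. SCT, the secretin precursor, had 5.94 in subclone 10 and no more than 4.51 in any other. Of 4 other granin genes 1 reached the line (25%), GNAS, which also encodes a G protein subunit (11.61 to 12.25).

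Of 16 receptor genes 3 reached the line (18.75%, against 59.7% of all genes). Of the 3, 1 spanned at least 2 units, as did 12.9% of the 7095 genes. RAMP1, which joins CALCRL to form the CGRP receptor, was highest in subclones 1 (8.74) and 12 (8.47) and lay between 4.40 in subclone 9 and 6.44 in subclone 3 in the other 8. CALCRL itself lay between 3.18 and 3.37 throughout, and the neurotensin receptors NTSR1 (3.65 to 4.28) and NTSR2 (3.19 to 4.002) also stayed below the line; these 3 are named for their role, after their values were seen. C3AR1, a complement receptor that also binds a VGF peptide, was highest in subclone 1 (7.14) and lowest in subclone 8 (5.17). CRCP, a CGRP receptor component, lay between 5.31 and 6.09. Of 9 peptidase genes 5 reached the line (55.6%, close to the 59.7% of all genes). Of the 5, 1 spanned at least 2 units (20%, against 12.9%). It was MME, or neprilysin, at 7.17 in subclone 9 and 4.46 in subclone 1. THOP1 (5.64 to 7.02), DPP4 (6.17 to 7.38) and ECE1 (6.60 to 7.46) had smaller ranges.

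In the granule exocytosis list 17 of 27 genes reached the line (63.0%, close to the 59.7% of all genes). Of the 17, 6 spanned at least 2 units (35.3%, against 12.9% of the 7095 genes). With no filter on low values 6 of 27 (22.2%) spanned as much, against 7.71% of all genes. CADPS2 and CADPS, which prime dense-core granules, were highest in subclone 9, at 6.72 and 6.04, with lowest values of 3.89 in subclone 6 and 3.72 in subclone 10. Neither was particular to subclone 9: CADPS2 was at 6.38 in subclone 5, and CADPS was at 5.68 in subclone 12. RAB3B and RAB27B, GTPases of granule docking, were also highest in subclone 9, at 8.32 and 7.05, with lowest values of 5.83 and 4.61. In all, 7 of the 17 were highest in subclone 9, the subclone high in SYT1, where 25.8% of the 7095 genes were. The mean level of the list was 5.89 in subclone 9 and between 5.43 and 5.61 in the others.

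Of 22 transcription control genes 10 reached the line (45.5%, against 59.7% of all genes). Of the 10, 1 spanned at least 2 units (10%, close to the 12.9% of the 7095 genes). It was EGR1, an immediate early gene, at 8.45 in subclone 12 and 6.17 in subclone 9. The corepressor RCOR1 had its highest value, 7.93, in subclone 2 and its lowest, 6.08, in subclone 10. CRTC3, a CREB coactivator, was highest in subclone 3 (7.83) and lowest in subclone 10 (6.13). NR4A1, a nuclear receptor, was highest in subclone 11 (5.59) and lowest in subclone 8 (3.96).

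**Figure D5:**
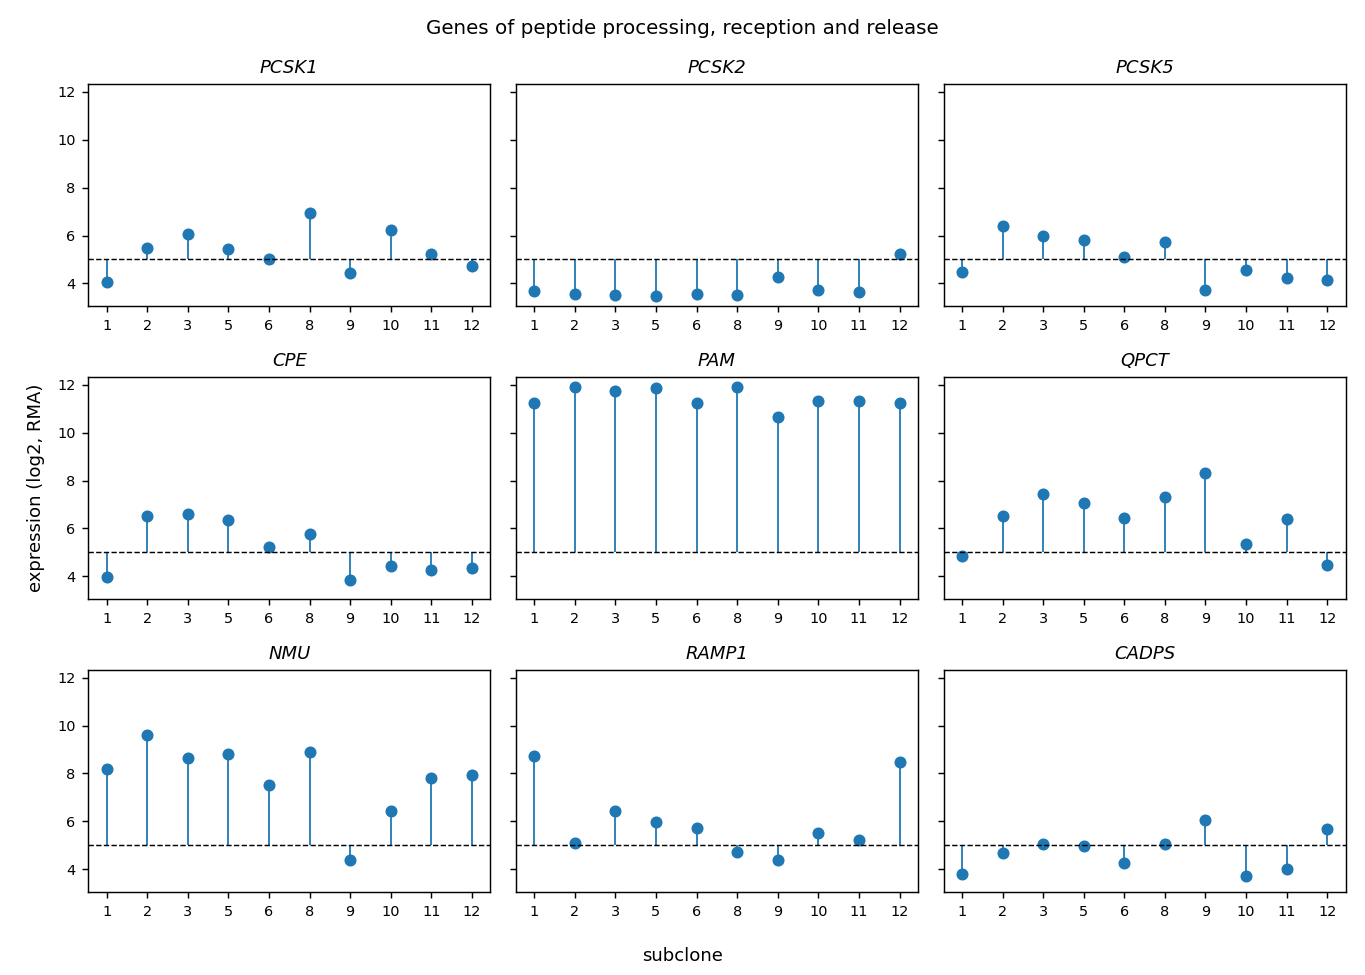
Log2 expression (vertical axis) by subclone (horizontal axis) for 9 genes of peptide processing, reception and release, picked for display after their values were seen; each point is 1 array and the dashed line is the table's median. CPE and PCSK5 are above the line in subclones 2, 3, 5, 6 and 8 and below it in the other 5, RAMP1 is highest in subclones 1 and 12, and PCSK2 is above the line in subclone 12 alone.

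Markers of neurons and neuroendocrine cells were mostly below the line, with 5 of 16 reaching it (31.25%, against 59.7% of all genes). The 5 were led by UCHL1 (11.23 ± 0.51, SD, n = 10), ENO2 (10.43 ± 0.52) and SNAP25 (7.17 ± 0.51). The defining granule and lineage markers SYP, CHGA and INSM1 stayed under 4.25 in every subclone. The mean level of the 16 lay between 5.19 in subclone 8 and 4.801 in subclone 9. Of the 5, 0 were highest in subclone 9, where SYT1, VGF and 25.8% of the 7095 genes were. Of 16 glial markers 5 reached the line (31.25%), with GJA1 (11.34 ± 0.39), SLC1A3 (7.59 ± 1.14) and NES (6.74 ± 0.80) leading. The other 11 stayed below the line, among them the astrocyte filament GFAP (at most 4.02) and the glial factor OLIG2 (at most 3.68), so the list was split and does not settle the glioma label either way. These 2 genes, and SYP, CHGA and INSM1, were picked after their values were seen. Of 12 mesenchymal markers 11 reached the line (91.7%), among them FN1 (12.50 ± 0.30) and COL1A2 (11.65 ± 1.03). The mean level of the 12 was 7.88 in subclone 9 and between 8.43 and 8.74 in the others. Of the 11, 5 were lowest in subclone 9, as were 11.6% of the 7095 genes. The part of this in the values of SYT1, VGF, SCG2 and SCG5 in subclone 9 was not tested.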

How the data were processed

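The authors deposited log2 values, produced by RMA according to the submitters' processing notes, from 1-colour Affymetrix arrays with biotin-labelled RNA, per the labels' protocols. RMA corrects background, normalises probe signals between arrays by quantiles and summarises probes, which compresses weak signals, so a fold over a low value is likely to be too small. The labels do not state the array annotation or how several probe sets of a gene became 1 value. The values carry no depth, and the number of arrays limits precision. Of 11880 symbols 10616 were current in RefSeq (GRCh38.p14), 1082 matched an older name and 182 did not match.

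The 10 subclones form 1 group with 1 array each, so nothing was tested. Range, gaps between sorted values and Pearson's r were computed with Python 3.11.15, numpy 2.4.6 and pandas 2.3.3, and tested on simulated data. Genes were tested (followed further) if their highest value reached the table's median, 5.00. Named were all members, up to 4 genes per pathway list by range, the 3 nearest genes by r for each member spanning 2 log2 units, and the 3 brightest genes per marker list, with exceptions stated; some genes that the rule takes are not reported here. Members and lists were chosen with earlier results of these data known. Protein features were planned and not computed, as no protein sequences were used here. Alternatives were median or upper-quartile centring, other thresholds and filters, and leaving out subclones.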

Additional observations from a re-analysis of the deposited data

Results flagged for a closer look

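A subclone was set apart when its distance to the nearest other value was a larger share of the gene's whole range than Dixon's 95% value for 10 samples allows. Chance alone would do this in about 1 in 20 groups; 12.5% of the 7095 genes did. Of the 58 named genes 19 did, and 3 of these are members: NTS in subclone 12 (8.35), SCG5 in subclone 9 (8.05) and SYT1 in subclone 9 (6.26). The members were chosen on these values and the nearest genes for their likeness to them, so the number is not independent.

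Above the other 9 in subclone 9 lay SPINK1 (7.85), COL15A1 (6.40) and BCL2A1 (5.24), the genes most like SYT1, and the granule GTPase RAB27B (7.05). Below the other 9 in the same subclone lay AK3L1 (7.64), CA9 (7.17) and FAM70A (4.74), the genes most like SCG5, and the markers COL1A2 (8.98), FN1 (11.72) and GJA1 (10.37). In subclone 12 the genes most like NTS lay above the rest: BTG2 (5.41), HSPA12A (6.03) and PCSK2 (5.21). PNOC was set apart in subclone 3 (5.48), SCT in subclone 10 (5.94) and, below the others, UCHL1 in subclone 6 (10.10).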

How the results depend on the processing

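The number of members reaching the line was 6, and 5 to 6 when each subclone was left out in turn; it stayed 6 when arrays were centred on the median or the upper quartile (60.1% and 61.8% of all genes), and was 4 with the line at the table's upper quartile, 7.20 (32.9%). The number spanning at least 2 log2 units was 5, and 3 to 5 with each subclone left out; it was 3 without subclone 9, as SCG5 and SYT1 then spanned less, and 2 when the filter was set on the mean (11.5% of genes followed), as NTS, CALCB and SYT1 have means under the line. It was 5 under both centrings (12% and 12.3%). The number with 1 subclone apart was 4, 3 to 5 with each subclone left out, 4 under both centrings (1.95% and 2.45% of genes) and 2 with a gap of at least 2 log2 units (0.733%). The count of 17 wide-ranging pathway genes was 13 to 17 with each left out. Without subclones 9 and 10, an alternative chosen after seeing the data, 4 members reached the line (56.9% of all genes), 2 spanned 2 units (6.75% of genes followed), 2 had 1 subclone apart (0.784%), and 10 pathway genes spanned 2 units. The r of VGF with SCG5 lay between -0.93 and -0.72 over the 10 such fits. That of SCG5 with SYT1 lay between -0.92 and -0.15 (rho = -0.50), and that of VGF with SYT1 between 0.18 and 0.88 (rho = 0.37); the weakest value of all 3 came without subclone 9. With 1 array for each subclone, differences between subclones and between arrays cannot be told apart.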

Other observations

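A few pairs of genes are given because their values stood out after the data were seen; PAM is outside the naming rule. PAM, the enzyme that amidates peptides, had r = 0.92 with SCG5, and 0.94 without subclone 9. NMU also had r = 0.92 with SCG5. Without subclone 9 this was 0.74, which placed NMU only at rank 931 of 7089 genes. CPE and PCSK5 had r = 0.97 with each other, and 0.96 without subclone 9. These are descriptions of single arrays normalised together and carry no test.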
